A study of Mus musculus with 14 samples.

Results

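The 56 genes described here act in the G2 phase of the cell cycle and in mitosis, and their transcript levels were followed after deletion of Prmt5 in mouse blood-forming cells. They were taken by name from a list of known roles, and all 56 were found once each among the 45706 genes of the deposited tables. They fell into 9 role classes: 11 kinases, cyclins and phosphatases of mitotic entry, 5 spindle checkpoint genes, 7 kinetochore genes, 4 genes of the chromosomal passenger complex, 10 kinesins, 7 genes of condensin and chromosome structure, 4 of the anaphase-promoting complex and sister separation, 6 of the spindle and cytokinesis, and 2 transcription factors. All 56 passed the filter on low counts in both data sets, where 13771 genes (LK) and 15566 genes (fetal liver) were tested. The lowest count of any member in any library was 92 reads, for Cdc25c.

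RNA was sequenced from 14 libraries of mouse cells, to ask what loss of the arginine methyltransferase PRMT5 does to blood formation. Fetal livers of embryonic stage E14.5, an organ filled with maturing red cells, were sorted by Ter119, a surface antigen of the erythroid lineage. The KO embryos were PRMT5fl/fl with Vav-cre, a recombinase active throughout the blood system, and the WT embryos were PRMT5fl/fl without it, so both carried the floxed allele. Ter119pos KO, Ter119pos WT, Ter119neg KO and Ter119neg WT each held 2 libraries, A and B. KO libraries A and B came from mice 1 and 2 in both fractions. In WT, library B of both fractions came from mouse 4, while library A came from mouse 5 (Ter119pos) and mouse 3 (Ter119neg). LK cells, a sorted progenitor population, came from KO mice with Mx1-cre and PRMT5fl/fl, and from WT mice with PRMT5fl/fl alone, 7 days after poly(I:C), an interferon inducer that switches Mx1-cre on and that both genotypes received. The 3 KO and 3 WT LK libraries carry the letters A, B and C but name no mice, so for LK the p-values measure how far apart the libraries lay, which may be technical. These are bulk libraries, in which fewer cells of a type and less RNA per cell cannot be told apart.

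Entry into mitosis is driven by CDK1 bound to A- and B-type cyclins, and the proteins of the other classes condense the chromosomes, attach them to the spindle, hold anaphase back until attachment is complete, and then split the sisters and the cell. Transcripts of these genes accumulate late in the cycle. In quiescent and arrested cells the DREAM complex, with the MuvB core, holds many of them down through the cell cycle homology region, and in cycling cells MuvB with MYBL2 and FOXM1 raises them, often with NF-Y at CCAAT boxes. Erythroid progenitors divide several times as they acquire Ter119 and then leave the cycle before they lose the nucleus.

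Promoters of 5 members are shown because they include the largest fall (Mki67), a gene lower in every KO library of all 3 populations without a motif match in this window (Knstrn), and a gene with both motifs that was not called in any KO comparison after TMM scaling (Cdc20). The windows are RefSeq sequences on GRCm38.p6, each running from 250 bases before the transcription start to 50 after it, 5′ to 3′ on the gene's strand. Capitals mark the cell cycle homology core TTTGAA or its form TTCGAA, and the CCAAT box CCAAT, on either strand (TTCAAA and ATTGG are TTTGAA and CCAAT on the other strand). They are chr9:70421505-70421804 (minus strand) for Ccnb2, chr11:99024140-99024439 (minus) for Top2a, chr7:135716330-135716629 (minus) for Mki67, chr2:118813753-118814052 (plus) for Knstrn and chr4:118437294-118437593 (minus) for Cdc20.
Ccnb2: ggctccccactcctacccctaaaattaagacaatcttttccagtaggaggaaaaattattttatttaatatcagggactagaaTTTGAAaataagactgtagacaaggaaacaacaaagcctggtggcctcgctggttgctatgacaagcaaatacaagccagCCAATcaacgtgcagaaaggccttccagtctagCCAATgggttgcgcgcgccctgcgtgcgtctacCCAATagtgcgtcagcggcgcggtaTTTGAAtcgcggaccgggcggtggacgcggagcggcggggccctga
Top2a: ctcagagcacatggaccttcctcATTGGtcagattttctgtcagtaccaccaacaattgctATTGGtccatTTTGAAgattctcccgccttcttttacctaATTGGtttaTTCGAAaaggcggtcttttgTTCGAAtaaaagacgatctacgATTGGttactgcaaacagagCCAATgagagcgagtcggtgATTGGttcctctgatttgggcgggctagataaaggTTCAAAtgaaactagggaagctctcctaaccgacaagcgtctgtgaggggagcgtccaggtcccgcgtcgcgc
Mki67: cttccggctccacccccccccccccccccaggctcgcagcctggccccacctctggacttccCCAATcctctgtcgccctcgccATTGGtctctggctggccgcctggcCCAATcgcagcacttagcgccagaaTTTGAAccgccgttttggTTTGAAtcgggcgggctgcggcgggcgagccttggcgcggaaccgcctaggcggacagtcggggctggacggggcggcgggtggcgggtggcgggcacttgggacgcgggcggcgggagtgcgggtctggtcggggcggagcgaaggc
Knstrn: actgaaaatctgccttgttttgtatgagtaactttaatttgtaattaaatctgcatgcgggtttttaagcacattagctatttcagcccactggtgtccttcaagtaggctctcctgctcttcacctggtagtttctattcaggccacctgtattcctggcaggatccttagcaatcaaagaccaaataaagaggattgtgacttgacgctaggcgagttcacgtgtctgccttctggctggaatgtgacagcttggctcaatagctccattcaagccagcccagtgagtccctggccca
Cdc20: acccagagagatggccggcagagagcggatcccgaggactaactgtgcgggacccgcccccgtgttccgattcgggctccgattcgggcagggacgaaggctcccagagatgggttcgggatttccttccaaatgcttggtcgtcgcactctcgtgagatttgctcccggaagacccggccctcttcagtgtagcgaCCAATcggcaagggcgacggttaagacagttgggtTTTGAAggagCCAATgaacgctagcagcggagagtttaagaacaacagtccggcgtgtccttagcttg
In Ccnb2 the TTTGAA nearest the start begins at base 5, and the CCAAT boxes begin at bases -87, -54 and -21. Cdc20 has TTTGAA at base -18 between CCAAT boxes at -53 and -8. Top2a holds both TTTGAA and TTCGAA, with 6 CCAAT boxes.

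RefSeq gave 49 such windows for 46 members. In 36 of the 49 a stretch of 30 bases, beginning a few bases after the start, lay in the first 400 bases of a GENCODE transcript. The other windows may not hold the start in use. TTTGAA or TTCGAA was present in 77.6% of the 49 member windows, against 19.2% of all 32851 promoter windows of that length. CCAAT occurred at least once in 73.5% of member windows, against 37.4% of all windows, and at least 2 times in 49.0%, against 11.7%. Both kinds of motif stood together in 67.3% of member windows, against 7.52% of all windows. These matches are letters in a window, not measured binding. Across the KO comparisons the 35 members with TTTGAA or TTCGAA and the 11 without had similar medians: -1.40 and -1.25 on the log2 scale in Ter119pos, -0.32 and -0.25 in Ter119neg, and -0.36 and -0.31 in LK. No window was listed for Spc24, Incenp, Kif20a, Cdc25c, Aurkb, Foxm1, Ccna2, Bora, Smc4 and Tpx2.

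Total counts ran from 19514550 to 30976961 per library. Prmt5 was lower in every KO library of each population (3.64 and 4.92 CPM in the KO Ter119pos libraries, against 13.8 and 17.7 CPM in the WT ones, with log2 fold changes of -1.89 in Ter119pos, -3.57 in Ter119neg and -2.81 in LK). Alas2, the erythroid enzyme that starts haem synthesis, stood at 2727 to 4013 CPM in the Ter119pos libraries and at 4.25 to 15.3 CPM in the Ter119neg ones. Kit, a receptor of progenitors, stood at 209 to 388 CPM in LK, where the stem cell antigen gene Ly6a was at 1.62 CPM or less. The LK letter B libraries gave 23.4% (KO) and 18% (WT) of their counts to the ribosomal gene Rn18s-rs5. The most abundant gene was Rn7s1 in the KO Ter119pos libraries (14.1% and 13.7% of counts) and mt-Rnr2 in the WT ones (11.5% and 12.5%). CPM are library-size-scaled counts after TMM scaling, which corrects for a few genes that take much of a library. Those scaling factors were 0.482 and 0.408 in the KO Ter119pos libraries, 0.792 and 0.855 in the WT ones, and 1.36 to 1.97 in Ter119neg. Directions between the fractions, and the size of KO changes in Ter119pos, therefore depend on that scaling.

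The members were lowest, relative to WT, in Ter119pos KO cells. Of 56 members, 51 were lower and 1 (Pttg1) was higher at an adjusted p under 0.05 (edgeR quasi-likelihood test), where 29.3% of all genes tested were lower and 24.8% higher (54.2% in all). The median log2 fold change of the members was -1.29, beside -0.04 for all genes. In Ter119neg cells 18 members were lower and 1 higher, beside 9.55% of all genes lower and 9.57% higher (19.1% in all), with medians of -0.27 and 0.01. In LK cells no member was called in either direction, beside 0.661% of genes lower and 1.15% higher (1.82% in all), with medians of -0.35 and -0.09. Without composition scaling, by library totals alone, 55 members were lower and 0 higher in Ter119pos, where 54% of all genes were lower, and 32 were lower in Ter119neg, where 18.8% were. Relative to the median of all genes, the members' median in Ter119pos was -1.24 with TMM and -1.24 by library totals, in Ter119neg -0.28 and -0.27, and in LK -0.26 and -0.27. A change of scaling moves all genes of a comparison by nearly the same amount. The likeness of these pairs therefore follows from the arithmetic and is no test of the scaling. Calls given below are after TMM scaling unless library totals are named.

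**Figure D1:**
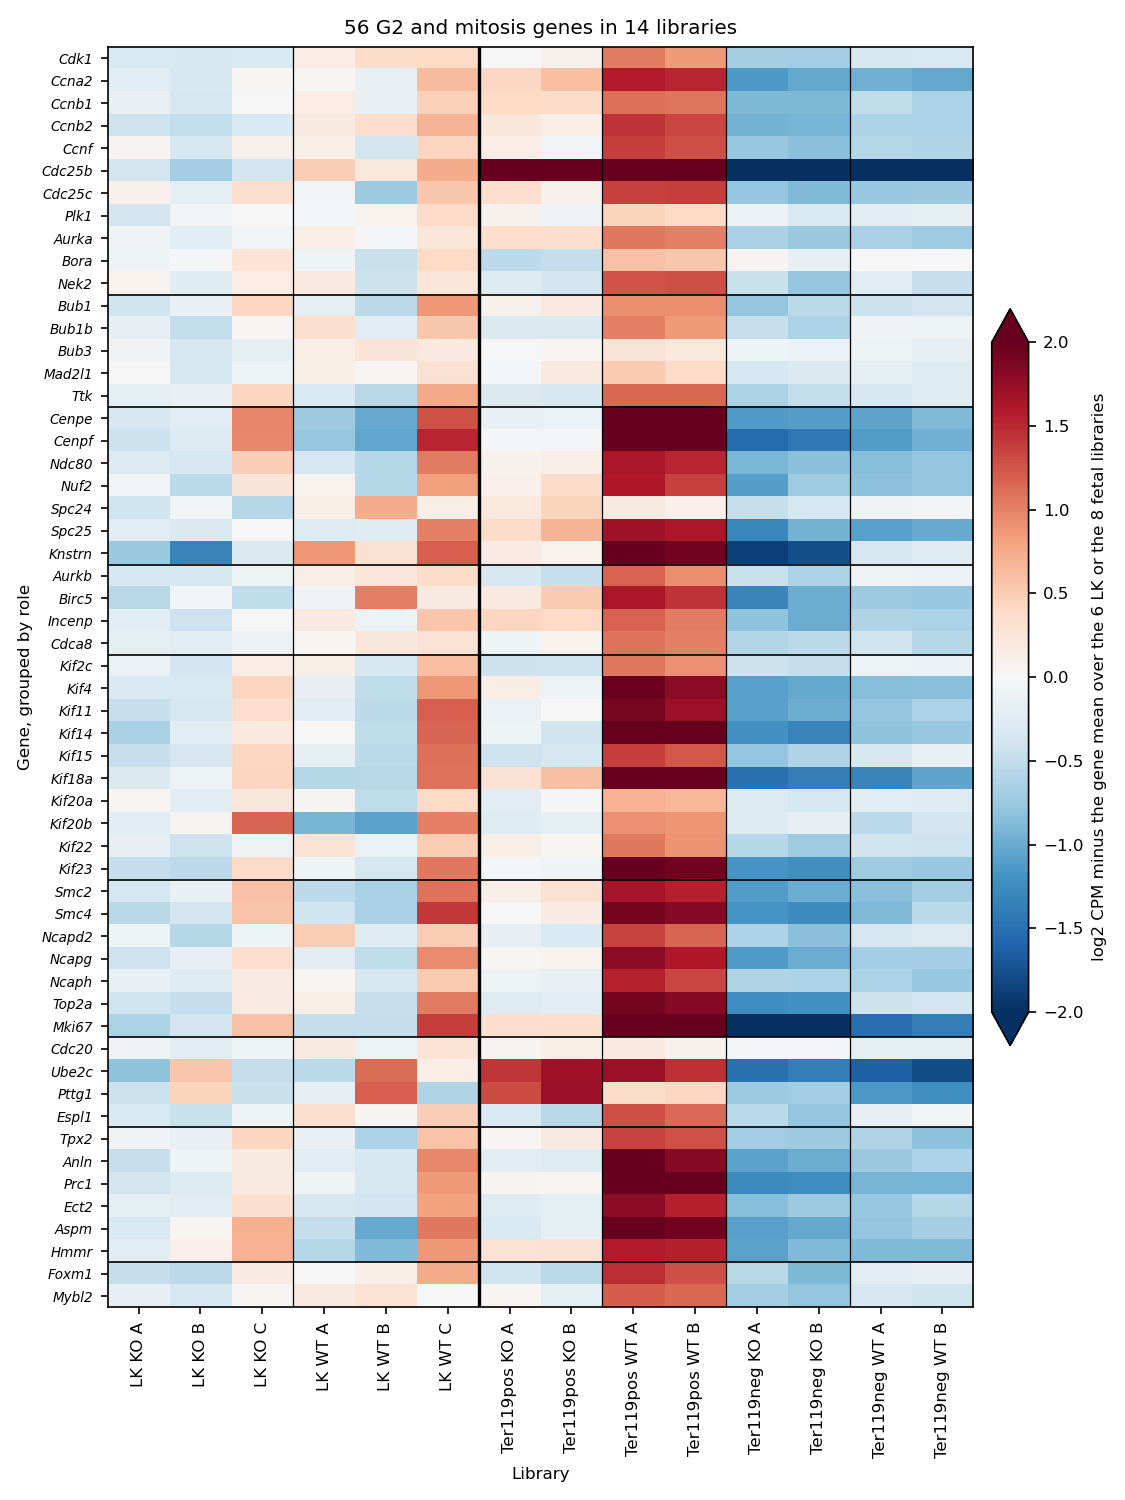
Level of each of the 56 members in each of the 14 libraries, as log2 CPM minus the gene's mean over the 6 LK or the 8 fetal libraries (colour scale limited to -2 and 2), with members in rows by role and KO libraries left of WT ones. In Ter119pos 52 rows are lower in both KO libraries than in both WT ones, while Spc24 and Pttg1 are higher in both and Cdc20 and Ube2c overlap; by library totals alone Spc24 is lower in Ter119pos KO.

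Summed over the 56 members, the level was 5755 and 5949 CPM in the KO Ter119pos libraries, against 23038 and 20327 CPM in the WT ones. In Ter119neg the sum was 2321 and 2325 CPM in KO, against 2891 and 2972 CPM in WT. In LK it was 3957, 3937 and 5557 CPM in KO, against 4819, 4360 and 8332 CPM in WT. The fetal groups did not overlap in either fraction, whereas the LK groups did, and the letter C library was highest in both LK genotypes. As a share of all counts, which amounts to scaling by library totals alone, the members took 0.277% and 0.243% of KO Ter119pos counts, against 1.82% and 1.74% in WT. Without Mki67 these shares were 0.218% and 0.192% in KO, against 0.982% and 0.956% in WT. Ter119neg shares were 0.377% and 0.316% in KO, against 0.568% and 0.512% in WT. LK shares were 0.486%, 0.298% and 0.689% in KO, against 0.575%, 0.276% and 0.955% in WT, and these overlapped.

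**Figure D2:**
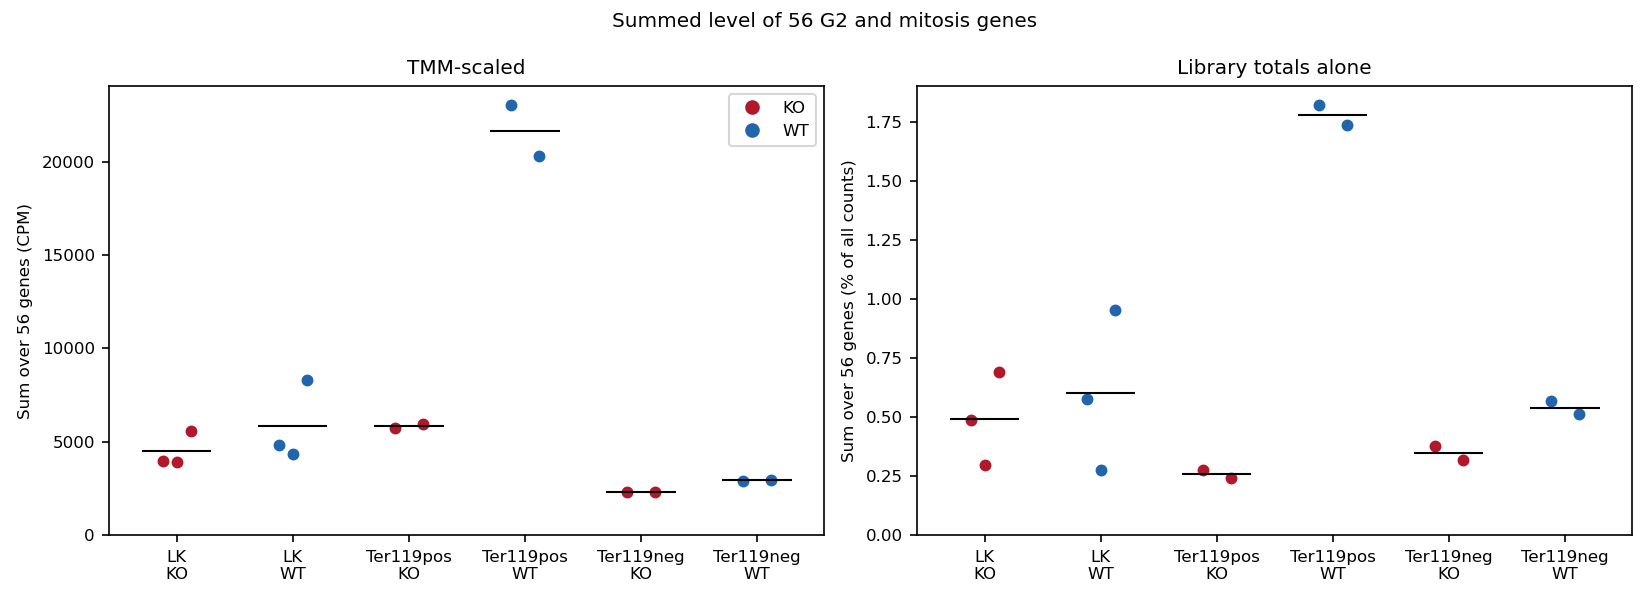
Sum of the 56 members in each library, in TMM-scaled CPM (left panel) and as a percent of all counts (right panel), with KO left of WT; each point is a library and each line a group mean. The Ter119pos KO libraries stand at 5755 and 5949 CPM, both below the WT libraries at 23038 and 20327 CPM, and the LK groups overlap.

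Every KO library lay below every WT library for 52 members in Ter119pos (39.8% of all genes; the reverse held for Spc24 and Pttg1, beside 35.8%), 39 in Ter119neg (31%) and 11 in LK (12.9%). Markers of other cell types and stages were read in the same libraries. Of 8 erythroid markers, Slc4a1, Rhag and Tfrc were lower and Klf1 higher in Ter119pos KO, with a summed level of 145126 and 186508 CPM in KO, against 152407 and 140053 CPM in WT, while by library totals alone 7 were lower and 0 higher, Klf1 being at -0.22. In Ter119neg KO 5 of the 8 were higher and 1 lower (4 and 1 by library totals), with sums of 649 and 931 CPM in KO, against 579 and 540.3 CPM in WT. All 10 macrophage markers were lower in Ter119neg KO, where they summed to 34.1 and 29.9 CPM, against 128 and 133 CPM in WT, and no marker was at 0 there. In Ter119pos KO 3 of them were lower and 1 higher (7 and 0 by library totals), and the summed levels of KO and WT overlapped. Granulocyte and monocyte genes mark the other myeloid cells a blood-forming tissue can hold. Of 10 granulocyte and monocyte markers 5 were lower in Ter119pos KO (9 by library totals), with sums of 29.3 and 81.7 CPM in KO, against 185 and 94.6 CPM in WT, and 2 were lower in Ter119neg KO (6 by library totals). In LK these 10 summed to 9324, 10579 and 17294 CPM in KO, against 23125, 49582 and 47087 CPM in WT. Without pairing the libraries by letter, edgeR called 0 of them. All LK KO sums lay below all LK WT sums for this list. Other markers called in LK KO, also without pairing, were Slc4a1 (-5.32) and Adgre1 (-2.07), both lower, and the progenitor marker Slamf1 (2.09), higher. By library totals alone 1 of 8 erythroid markers was lower and 1 hepatoblast marker higher there, and 0 macrophage or progenitor markers were called. Of 5 megakaryocyte markers 3 were higher and 1 lower in Ter119pos KO (1 and 1 by library totals), with sums of 29.1 and 28.1 CPM in KO, against 18.5 and 19.8 CPM in WT. Of 7 progenitor markers 2 were higher in Ter119pos KO (1 higher and 2 lower by library totals). In Ter119neg KO 1 was higher and 2 lower (1 and 3 by library totals). Of 6 hepatoblast markers 2 were higher in Ter119pos KO (0 by library totals) and 1 lower in Ter119neg KO (4 by library totals). Of 4 lymphoid markers tested 1 was lower in Ter119pos KO and 2 in Ter119neg KO (2 and 4 by library totals). The part of these differences in the members' levels was not tested.

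All 11 genes of mitotic entry fell in Ter119pos KO cells (median log2 fold change -1.04), and 2 of them, Cdk1 and Cdc25b, also fell in Ter119neg KO cells (median -0.21). Cdk1, the kinase that starts mitosis, had 69.5 and 73.8 CPM in the KO Ter119pos libraries, against 142 and 126 CPM in the WT ones (log2 fold change -0.90, SE 0.11, adjusted p = 1.99e-05, edgeR). In Ter119neg it had 43.7 and 42.8 CPM in KO, against 55.6 and 56.2 CPM in WT (log2 fold change -0.37, SE 0.11, adjusted p = 0.0327). Both KO libraries were lower than both WT libraries in each fraction. Cdc25b, a phosphatase that removes the inhibitory phosphates from CDK1, had 479 and 476 CPM in the KO Ter119pos libraries, against 930.1 and 759 CPM in the WT ones (log2 fold change -0.82, SE 0.15, adjusted p = 6.24e-04). Its Ter119neg level was far lower, 5.55 and 6.70 CPM in KO, against 8.23 and 9.49 CPM in WT (log2 fold change -0.53, SE 0.17, adjusted p = 0.0453). The KO and WT libraries were again separate in both fractions. For the B-type cyclin gene Ccnb2 the Ter119pos levels were 69.7 and 65.2 CPM in KO, against 163 and 149.8 CPM in WT (log2 fold change -1.21, SE 0.11, adjusted p = 1.42e-06), while the Ter119neg change of -0.32 did not pass (adjusted p = 0.0532).

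Among the other entry genes in Ter119pos KO, the log2 fold change was -1.60 for Nek2, a centrosome kinase, -1.29 for cyclin F (Ccnf), -1.16 for the CDK1 phosphatase Cdc25c, -1.04 for cyclin A2 (Ccna2) and -0.70 for cyclin B1 (Ccnb1). The polo-like kinase Plk1 fell least of the 11 (-0.41, adjusted p = 0.00677). Aurora A (Aurka), which activates PLK1, and its cofactor gene Bora fell by 0.70 and 1.06 on the log2 scale. In Ter119neg these 8 genes had log2 fold changes between -0.34 and -0.00, and none was called.

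Of the 5 spindle checkpoint genes, whose products delay anaphase until chromosomes are attached, 4 fell in Ter119pos KO (median -0.79) and 1, Bub1b, also fell in Ter119neg KO (median -0.25). Bub1b, which encodes the checkpoint inhibitor BUBR1, had 65.7 and 66.0 CPM in the KO Ter119pos libraries, against 162 and 146 CPM in the WT ones (log2 fold change -1.22, SE 0.12, adjusted p = 2.59e-06, edgeR). Its Ter119neg levels were 58.9 and 52.1 CPM in KO, against 76.6 and 75.0 CPM in WT (log2 fold change -0.45, SE 0.11, adjusted p = 0.0158). The groups were separate in both fractions. Ttk, the checkpoint kinase MPS1, had 12.9 and 12.5 CPM in the KO Ter119pos libraries, against 34.6 and 34.7 CPM in the WT ones (log2 fold change -1.45, SE 0.12, adjusted p = 8.31e-07). For Bub1, a kinetochore kinase, the values were 48.4 and 52.5 CPM in the KO Ter119pos libraries, against 87.2 and 87.5 CPM in the WT ones (log2 fold change -0.79, SE 0.11, adjusted p = 6.35e-05). In Ter119neg the changes of Ttk (-0.27) and Bub1 (-0.25) did not pass. Mad2l1, which encodes the checkpoint protein MAD2, fell by 0.36 in Ter119pos (adjusted p = 0.0145), and Bub3, the partner of BUB1 and BUBR1, had a change of -0.21 that did not pass (adjusted p = 0.0989) but was called lower by library totals alone.

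Kinetochore genes split into strong falls and 1 gene that did not fall. In Ter119pos KO 6 of 7 were lower (median -1.47), and in Ter119neg KO Cenpf and Knstrn were lower (median -0.15). Cenpf, a large protein of the outer kinetochore, had 92.0 and 92.7 CPM in the KO Ter119pos libraries, against 604 and 517 CPM in the WT ones (log2 fold change -2.60, SE 0.14, adjusted p = 6.93e-08, edgeR). The Ter119neg libraries held 32.7 and 35.1 CPM in KO, against 43.5 and 48.6 CPM in WT (log2 fold change -0.44, SE 0.13, adjusted p = 0.0364). KO and WT libraries did not overlap in either fraction. Knstrn, the spindle protein kinastrin (chromosome 2), was the member with the largest fall in Ter119neg, with 5.99 and 6.38 CPM in the KO Ter119neg libraries, against 17.3 and 18.4 CPM in the WT ones (log2 fold change -1.53, SE 0.11, adjusted p = 7.67e-06). Its Ter119pos levels were 24.4 and 22.9 CPM in KO, against 91.3 and 83.2 CPM in WT (log2 fold change -1.88, SE 0.11, adjusted p = 1.14e-07). Both KO libraries were thus well below both WT libraries in each fraction. Spc24, a subunit of the NDC80 complex, stood slightly higher in the KO Ter119pos libraries, 28 and 33.0 CPM, against 27.4 and 26.0 CPM in WT (log2 fold change 0.19, SE 0.12, adjusted p = 0.187), and lower by library totals alone (-0.70). The other NDC80 subunit genes fell in Ter119pos, with log2 fold changes of -1.47 for Ndc80, -1.24 for Nuf2 and -1.13 for Spc25. The kinetochore motor gene Cenpe fell by 2.37.

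All 4 genes of the chromosomal passenger complex, which corrects faulty attachments and guides cytokinesis, fell in Ter119pos KO (median -1.11), and Aurkb also fell in Ter119neg KO (median -0.34). Aurkb, the kinase of the complex, had 35.0 and 31.7 CPM in the KO Ter119pos libraries, against 99.0 and 83.4 CPM in the WT ones (log2 fold change -1.45, SE 0.12, adjusted p = 9.49e-07, edgeR). In Ter119neg it had 32.2 and 28.6 CPM in KO, against 40.9 and 40.1 CPM in WT (log2 fold change -0.41, SE 0.11, adjusted p = 0.0253). Birc5, which encodes survivin, had 57.5 and 72.0 CPM in the KO Ter119pos libraries, against 155 and 137 CPM in the WT ones (log2 fold change -1.17, SE 0.14, adjusted p = 1.94e-05). In all these comparisons the groups were separate. The scaffold gene Incenp had 109 and 106 CPM in the KO Ter119pos libraries, against 181 and 165 CPM in the WT ones (log2 fold change -0.69, SE 0.11, adjusted p = 2.41e-04), and the borealin gene Cdca8 fell by 1.05. Birc5 (-0.40) and Incenp (-0.27) did not pass in Ter119neg.

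The 10 kinesin genes, whose products are motors of the spindle, all fell in Ter119pos KO, with a median of -1.72. In Ter119neg KO 4 of them fell: Kif2c, Kif14, Kif15 and Kif23 (median of the 10, -0.30). Kif14, a motor of the midbody, had 39.0 and 31.6 CPM in the KO Ter119pos libraries, against 221 and 192 CPM in the WT ones (log2 fold change -2.55, SE 0.13, adjusted p = 6.38e-08, edgeR). In Ter119neg its levels were 18.1 and 16.6 CPM in KO, against 23.9 and 24.6 CPM in WT (log2 fold change -0.48, SE 0.13, adjusted p = 0.0209). Neither fraction showed any overlap. Kif23, a subunit of centralspindlin, had 31.6 and 30.6 CPM in the KO Ter119pos libraries, against 138 and 123 CPM in the WT ones (log2 fold change -2.06, SE 0.11, adjusted p = 5.89e-08). Kif15, a motor that crosslinks spindle fibres, had 49.5 and 51.8 CPM in the KO Ter119pos libraries, against 173 and 156 CPM in the WT ones (log2 fold change -1.70, SE 0.12, adjusted p = 3.73e-07). Their Ter119neg changes were -0.47 for Kif23 (adjusted p = 0.00857) and -0.47 for Kif15 (adjusted p = 0.0169).

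The other kinesins fell in Ter119pos KO by amounts between those of Kif20a (-0.80), a motor of the central spindle, and Kif11 (-1.89), the motor that pushes the poles apart. Between them stood Kif4 (-1.86), a chromokinesin, Kif18a (-1.73), which damps chromosome movement, Kif2c (-1.40), a microtubule depolymerase, Kif20b (-1.12), a motor of cytokinesis, and Kif22 (-0.90), a second chromokinesin. Kif20b had positive log2 fold changes in Ter119neg (0.23) and LK (0.46), neither of which was called.

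Condensin and chromosome structure held the members with the largest loss of counts. All 7 fell in Ter119pos KO (median -1.65), and 5 of them fell in Ter119neg KO (median -0.43). Mki67, which encodes the coat protein Ki-67 that keeps mitotic chromosomes apart and serves as a marker of cycling cells, had 1237 and 1249 CPM in the KO Ter119pos libraries, against 10631 and 9144 CPM in the WT ones (log2 fold change -2.99, SE 0.18, adjusted p = 1.68e-07, edgeR). This was the largest fall among the 56 members, to a fold of 0.126 of WT. The Ter119neg libraries held 209 and 215 CPM in KO, against 342 and 376 CPM in WT (log2 fold change -0.76, SE 0.17, adjusted p = 0.00921). Top2a, the topoisomerase that untangles sister chromatids, had 284 and 293 CPM in the KO Ter119pos libraries, against 1279 and 1201 CPM in the WT ones (log2 fold change -2.11, SE 0.14, adjusted p = 2.49e-07). Its Ter119neg levels were 143 and 146 CPM in KO, against 252 and 262 CPM in WT (log2 fold change -0.83, SE 0.14, adjusted p = 0.00129). For both genes each KO library was below each WT library of its fraction. Smc4, an ATPase shared by both condensins, had 146 and 163 CPM in the KO Ter119pos libraries, against 549 and 511 CPM in the WT ones (log2 fold change -1.78, SE 0.15, adjusted p = 1.00e-06), and its Ter119neg change was -0.54 (adjusted p = 0.0231). The condensin I genes Ncapd2, Ncapg and Ncaph fell by 1.5, 1.65 and 1.56 in Ter119pos, and the partner ATPase gene Smc2 fell by 1.38. Ncapd2 (-0.43) and Ncapg (-0.38) also fell in Ter119neg, while Ncaph (0.08) and Smc2 (-0.29) did not pass.

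The 4 genes of the anaphase-promoting complex and sister separation did not move together (medians -0.04 in Ter119pos and 0.22 in Ter119neg). Espl1, which encodes separase, the protease that cuts cohesin at anaphase, had 54.9 and 46.1 CPM in the KO Ter119pos libraries, against 166 and 148 CPM in the WT ones (log2 fold change -1.63, SE 0.13, adjusted p = 8.69e-07, edgeR). In Ter119neg it had 46.4 and 39.1 CPM in KO, against 60.3 and 64.9 CPM in WT (log2 fold change -0.55, SE 0.13, adjusted p = 0.0113). Pttg1, which encodes securin, the inhibitor of separase, was the member called higher, with 26.2 and 34.5 CPM in the KO Ter119pos libraries, against 13.6 and 14.1 CPM in the WT ones (log2 fold change 1.13, SE 0.14, adjusted p = 2.86e-05). The Ter119neg libraries held 6.41 and 6.52 CPM in KO, against 4.79 and 4.53 CPM in WT (log2 fold change 0.47, SE 0.15, adjusted p = 0.0440). So each KO library was below both WT libraries for Espl1 and above both for Pttg1, but by library totals alone Pttg1 did not pass in Ter119pos (0.23, SE 0.21, adjusted p = 0.342) or in Ter119neg (0.16, SE 0.21, adjusted p = 0.611). Ube2c, the ubiquitin-conjugating enzyme of the complex, had 324 and 387 CPM in the KO Ter119pos libraries, against 391 and 329 CPM in the WT ones (log2 fold change -0.02, SE 0.14, adjusted p = 0.921). Cdc20, the activator that the checkpoint blocks, had 88.0 and 92.7 CPM in the KO Ter119pos libraries, against 96.9 and 90.4 CPM in the WT ones (log2 fold change -0.05, SE 0.11, adjusted p = 0.702). The groups overlapped for both. By library totals alone both were called lower, with log2 fold changes of -0.91 for Ube2c and -0.94 for Cdc20.

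All 6 spindle and cytokinesis genes fell in Ter119pos KO, with a median of -2.0, and none passed in Ter119neg after TMM scaling (median -0.23), where by library totals alone Anln, Prc1 and Aspm were lower. Aspm, a protein of the spindle pole, had 62.5 and 67.9 CPM in the KO Ter119pos libraries, against 341 and 293 CPM in the WT ones (log2 fold change -2.28, SE 0.13, adjusted p = 9.88e-08, edgeR). Anln, the contractile ring protein anillin, had 48.6 and 47.1 CPM in the KO Ter119pos libraries, against 233 and 198 CPM in the WT ones (log2 fold change -2.17, SE 0.12, adjusted p = 9.88e-08). Prc1, which bundles the central spindle, had 80.8 and 79.7 CPM in the KO Ter119pos libraries, against 373 and 323 CPM in the WT ones (log2 fold change -2.12, SE 0.12, adjusted p = 1.20e-07). Both KO libraries were lower than both WT libraries for each of these genes. Ect2, which activates RhoA for the ring, fell by 1.89, the hyaluronan-binding spindle protein gene Hmmr by 1.28 and the spindle assembly factor gene Tpx2 by 1.20. In Ter119neg the 3 detailed genes had log2 fold changes of -0.33 (Aspm), -0.35 (Anln) and -0.33 (Prc1).

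Both transcription factors that switch on late cell cycle genes fell in both fetal fractions (medians -1.55 in Ter119pos and -0.45 in Ter119neg). Foxm1 had 21.4 and 19.4 CPM in the KO Ter119pos libraries, against 78.5 and 69.0 CPM in the WT ones (log2 fold change -1.85, SE 0.13, adjusted p = 3.77e-07, edgeR). In Ter119neg it had 19.3 and 15.1 CPM in KO, against 24.5 and 25.1 CPM in WT (log2 fold change -0.53, SE 0.13, adjusted p = 0.0121). Mybl2, which encodes the MuvB partner B-MYB, had 59.9 and 51.1 CPM in the KO Ter119pos libraries, against 135 and 129 CPM in the WT ones (log2 fold change -1.25, SE 0.11, adjusted p = 1.93e-06). Its Ter119neg levels were 36.6 and 33.9 CPM in KO, against 46.3 and 44.4 CPM in WT (log2 fold change -0.36, SE 0.11, adjusted p = 0.0396). The groups did not overlap in any of these 4 comparisons.

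**Figure D3:**
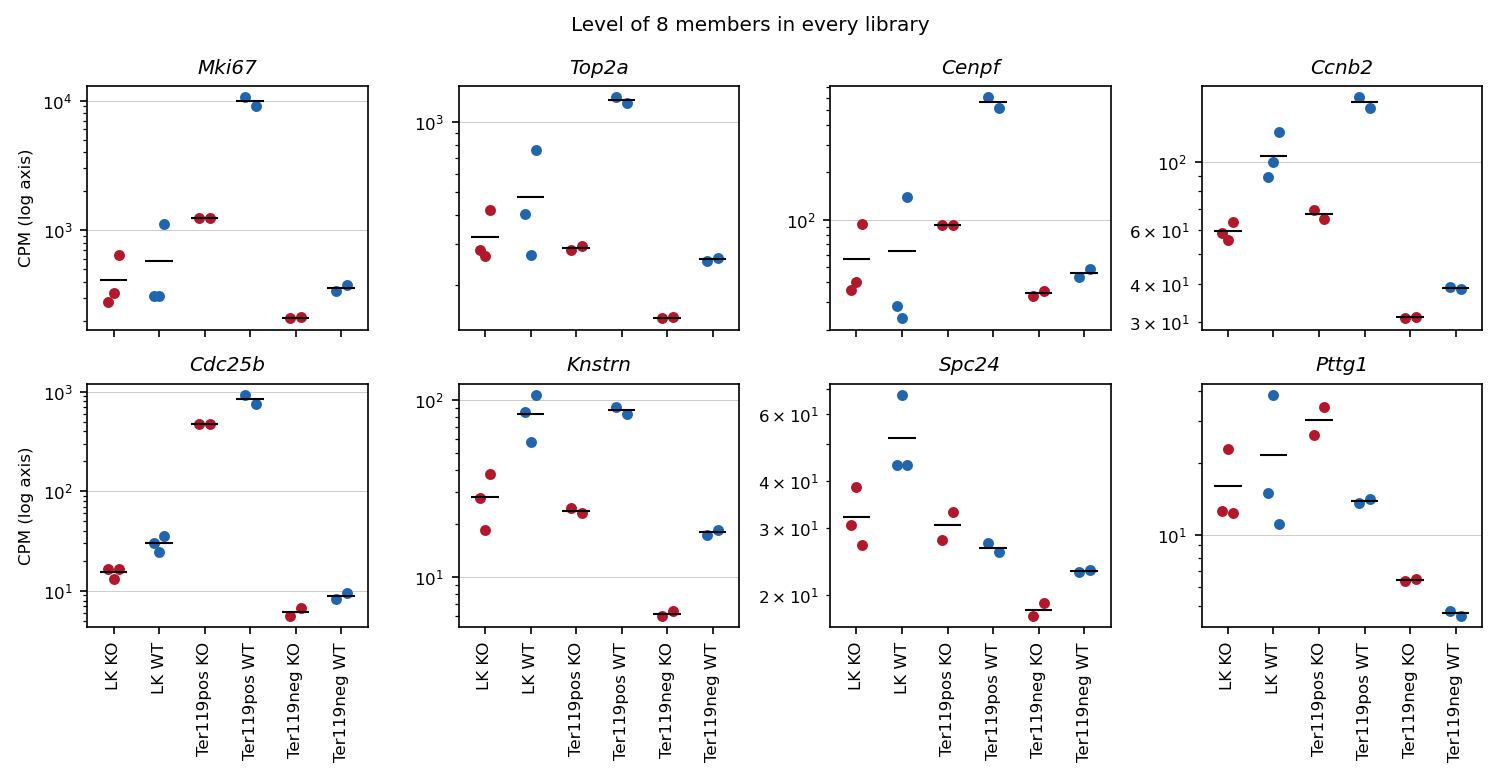
Level in CPM (log axis) of 8 members in every library, with KO left of WT in each population; each point is a library and each line a group mean. Knstrn is lower in every KO library of all 3 populations, whereas the Pttg1 KO libraries are above WT in both fetal fractions and overlap with WT in LK.

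In Ter119neg each library was left out in turn, a fit in which that group kept 1 library, so only medians are given. The members' median lay between -0.36 and -0.29 in these fits, beside -0.27 with all libraries. In Ter119pos the same omissions gave medians between -1.36 and -1.26.

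In LK cells the comparison of KO with WT, 7 days after the inducer, called no member (edgeR adjusted p of 0.0772 for the smallest). DESeq2 called Knstrn, Cdc25b and Ccnb2 lower, beside 3.88% of all genes lower, and limma-voom called 0. With a trend of level on transcript length removed, 2 (Knstrn and Espl1) were lower, beside 1.45% of genes. Libraries of the same letter deviated together, and with the letter as a block 11 members were lower and 0 higher, beside 12.8% of all genes lower. With the letter as a block and the length trend removed 17 were lower and Kif20b higher, beside 14.7% of genes lower and 12.5% higher. Knstrn had 27.8, 18.5 and 38.0 CPM in the KO LK libraries, against 85.4, 57.4 and 106 CPM in the WT ones (log2 fold change -1.56, SE 0.35, adjusted p = 0.0772). With the letter block its change was -1.58, SE 0.13, adjusted p = 9.61e-04. Every KO library was below every WT library. Cdc25b had 16.7, 13.3 and 16.5 CPM in the KO LK libraries, against 30.1, 24.8 and 35.9 CPM in the WT ones (log2 fold change -0.97, SE 0.24, adjusted p = 0.0942), and -0.96, SE 0.15, adjusted p = 0.00676 with the block. Ccnb2 had 58.7, 55.4 and 63.5 CPM in the KO LK libraries, against 89.0, 99.9 and 125 CPM in the WT ones (log2 fold change -0.82, SE 0.21, adjusted p = 0.109), and -0.81, SE 0.14, adjusted p = 0.00917 with the block. Both genes were also separate between genotypes.

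The other members called with the letter block were Cdk1 (-0.61), Spc24 (-0.67), Aurkb (-0.50), Birc5 (-0.75), Ncapd2 (-0.51), Ube2c (-0.50), Espl1 (-0.57) and Foxm1 (-0.56). Cdk1 had 86.5, 85.4 and 86.9 CPM in the KO LK libraries, against 119, 138 and 140.5 CPM in the WT ones, and these groups did not overlap. Mki67 had 278, 329 and 646 CPM in the KO LK libraries, against 309.7, 310.0 and 1121 CPM in the WT ones, and here they did, with the letter C library highest in each genotype (log2 fold change -0.47, SE 0.60, adjusted p = 0.725, edgeR). Many members shared that pattern, and without WT library C the members' median log2 fold change was 0.06, against -0.35 with all libraries, and -0.10 without both letter C libraries.

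Some members were lower in KO in all 3 populations. A total of 42 members had a negative log2 fold change in each, beside 21.9% of the genes tested in both data sets. Every KO library lay below every WT library in all 3 populations for 7 members, Cdk1, Ccnb2, Cdc25b, Mad2l1, Knstrn, Aurkb and Espl1, beside 4.1% of genes. Called lower in both fetal fractions were 18 members, beside 4.34% of genes. The KO changes in LK and in Ter119neg share no library, and across the 56 members they had a Spearman correlation of 0.575 and a Pearson correlation of 0.623. As members are not replicates, these describe the list only. The sign was the same for 45 members and negative in both for 43.

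Per kilobase of principal transcript, the order of the members' levels differed between genotypes in Ter119pos. In KO the highest were Ube2c (367 ± 45.9 CPM per kb, SD, n = 2 here and below), Cdc25b (155 ± 0.669), Mki67 (124 ± 0.793), Ccna2 (103 ± 9.67) and Ccnb1 (70.1 ± 0.768). In WT they were Mki67 (983 ± 105), Ube2c (372 ± 45.9), Cdc25b (273 ± 39.2), Top2a (238 ± 10.5) and Ccna2 (213 ± 6.95). Cdc25b and Top2a were within the spread of each other in WT. The lowest level was that of Kif14 in KO (3.95 ± 0.586) and of Mad2l1 in WT (6.54 ± 0.433). The rank of Mad2l1 rests on a principal transcript of 7557 nucleotides. Before division by length it had 51.7 and 47.1 CPM in WT, above Bora at 26.9 and 26.0 CPM. In Ter119neg WT Top2a (49.2 ± 1.25) and Cdc20 (41.4 ± 0.0806) led, and Cdc25b was next to last (2.87 ± 0.29).

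The Ter119pos and Ter119neg fractions were compared within each genotype. They differ in cell types: in WT all 8 erythroid markers were higher in Ter119pos. All 10 granulocyte and monocyte, all 7 progenitor, all 6 hepatoblast and 8 of 10 macrophage markers were lower there, and of 5 megakaryocyte markers 4 were lower and 1 higher. A change within cells that acquire the antigen therefore cannot be told apart from a different mix of cells. In KO 43 members were higher in Ter119pos and 1 (Bora) lower (30.3% of all genes higher and 32.3% lower, or 62.6% in all; median of members 0.91), but by library totals alone the direction turned, with 4 higher, 46 lower and a median of -0.84 (5.92% of genes higher, 78.8% lower). In WT 55 members were higher and 0 lower (35.9% of genes higher and 40.4% lower, or 76.3% in all; median 2.02), and by library totals alone 33 were higher and 6 lower (16.6% of genes higher, 65% lower; median 0.85). The all-gene median moved as well, to -1.86 in KO and -1.35 in WT by library totals. Relative to it the members' median was 1.02 to 1.03 in KO and 2.20 to 2.21 in WT under the 2 scalings, a likeness that again follows from the arithmetic. With the mouse as a block 50 members were called in KO (66.1% of genes) and 55 in WT (68.5%). Only mouse 4 gave both fractions in WT. In that fit the WT difference, and the WT part of the interaction below, therefore rested on this mouse alone.

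Cdc25b had the largest difference between fractions, with log2 fold changes of Ter119pos over Ter119neg of 6.28 in KO and 6.58 in WT, and it was higher in Ter119pos under both scalings. Mki67 had 2.55 in KO and 4.78 in WT, and Ube2c had 3.01 and 3.30, again higher under both scalings. Every Ter119pos WT library was above every Ter119neg WT library for all 56 members after TMM scaling, where this held for 41% of all genes. In KO it held for 52 members, where it held for 37.9%.

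The effect of the deletion differed between the fractions for 48 members (edgeR interaction test; 22.4% of all genes more negative in Ter119pos and 19.3% more positive, 41.7% in all), and for 50 with the mouse as a block (40.2% of genes). It was more negative in Ter119pos for 46 of them, with a median interaction over the 56 of -1.08 on the log2 scale. The largest were Mki67 (interaction -2.23, SE 0.24, adjusted p = 3.96e-05), Cenpe (-2.22), Cenpf (-2.16) and Kif14 (-2.07). Spc24 (0.53) and Pttg1 (0.66) had positive interactions, which did not pass by library totals alone (-0.06 and 0.07). Cdc25b (-0.29, adjusted p = 0.328) and Knstrn (-0.35, adjusted p = 0.0842) did not pass after TMM scaling, but by library totals alone both were called, at -0.86 for Cdc25b (adjusted p = 0.0155) and -0.93 for Knstrn (adjusted p = 0.00699).

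Members with longer transcripts had the lower fold changes in the fetal fractions. Across the 56 members the log2 fold change in Ter119pos had a Spearman correlation of -0.644 with the length of the principal transcript, beside -0.280 across 12830 genes. It was -0.472 in Ter119neg (-0.019 across genes) and 0.133 in LK (0.350 across genes). The 28 shortest members (947 to 3398 nucleotides) had a median of -1.09 in Ter119pos, and the 28 longest (3421 to 11130 nucleotides) a median of -1.68, beside 0.16 and -0.29 for all genes in those length ranges. Of the shortest, 23 fell and 1 rose, while all 28 of the longest fell. A trend of level on the length of each gene's longest transcript was then removed in each library. That length is not always the principal one (3334 and 947 nucleotides for Birc5). After removal the medians were -1.07 and -1.51. Then 51 members were lower and 1 higher, beside 29.3% and 23.1% of all genes: 50 of the earlier 51 were still lower, Mad2l1 was not (-0.09), Cdc20 was newly lower (-0.29), and Pttg1 was still higher (0.86). The correlation with principal transcript length across members was then -0.522. The part of transcript length in the members' fall beyond that was not tested.

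**Figure D4:**
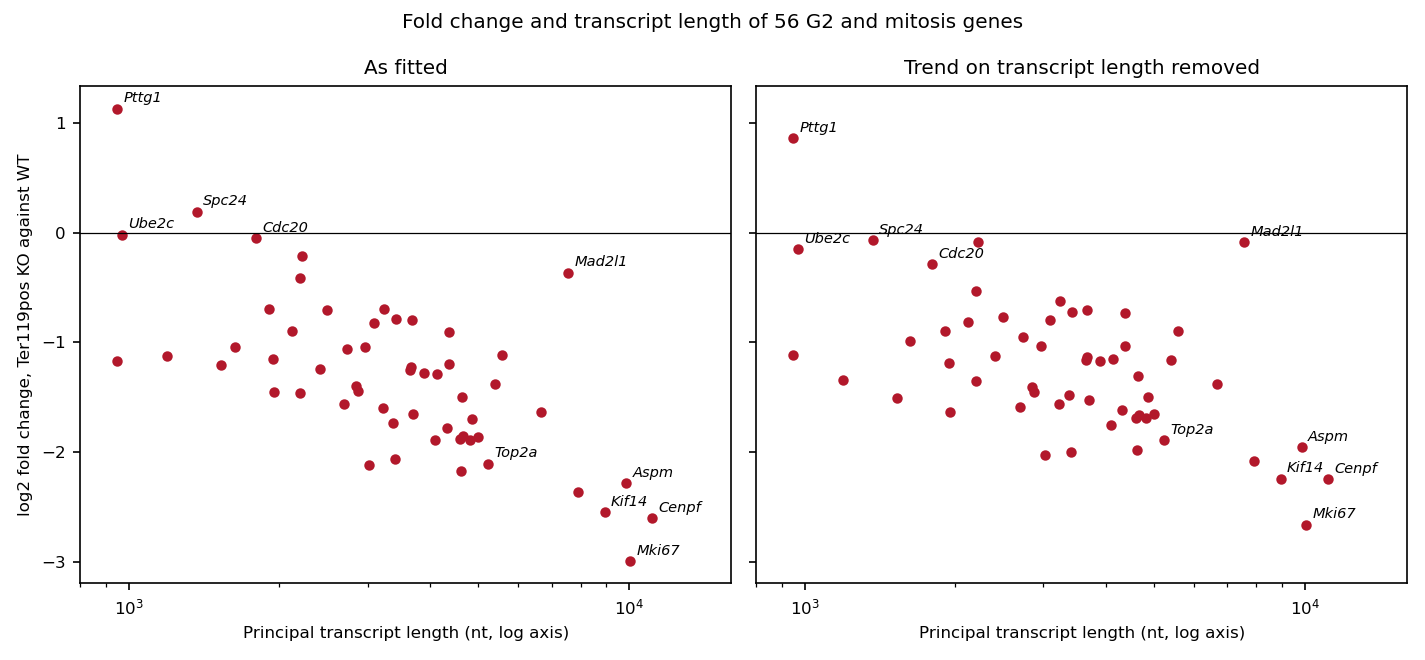
Log2 fold change of KO over WT in Ter119pos against principal transcript length (nucleotides, log axis), as fitted (left panel) and after trend removal (right panel). The trend removed in each library was that of level on the length of the longest transcript. Each point is a member. The points run lower to the right in both, with Spearman correlations of -0.644 as fitted and -0.522 after removal.

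Genes of neighbouring steps were read beside the members, from lists of which at most 4 genes with the smallest p are named, plus those of any count of 5 or fewer, picked after their values were seen. Of 36 S phase genes, which act in DNA replication, 24 were lower and 3 (Cdt1, Rfc4 and Rpa3) higher in Ter119pos KO, and by library totals alone 34 were lower and 0 higher. Their median was -0.61 in Ter119pos, where that of the members was -1.29, and Clspn, a replication fork protein, had -2.37. In Ter119neg KO 14 of the 36 were lower (median -0.27), and 22 by library totals. In LK KO edgeR without the letter block called 0 of them (median -0.35).

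Most genes of other parts of the chromosome machinery were also lower in Ter119pos KO. Of 27 other kinetochore genes 22 were lower and 3 (Cenpm, Cenpw and Zwint) higher, with a median of -1.04, and by library totals alone 24 were lower and 0 higher. The inner kinetochore gene Cenpc1 (-1.57), Casc5, the platform for the checkpoint (-1.88), and Dsn1, of the MIS12 complex (-1.31), were among the lower ones. In Ter119neg KO 5 of the 27 were lower: Cenpi, Cenpu, Cenpp, Pmf1 and Casc5, and by library totals alone 15 were. Cohesin, which holds the sisters together, had 12 of 13 genes lower in Ter119pos KO (median -1.43), including the ring subunit genes Smc1a (-1.52) and Smc3 (-1.61). In Ter119neg Smc1a fell (-0.36), while the cohesin acetyltransferase gene Esco2 rose (0.62), a call lost by library totals alone (0.32), where 6 of the 13 were lower and 0 higher, and Esco2 fell in Ter119pos (-1.63). Of the 3 genes of condensin II alone, Ncapd3 (-1.84) and Ncapg2 (-1.68) fell in Ter119pos.

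Of 17 core subunits and co-factors of the anaphase-promoting complex 7 were lower and 3 (Anapc10, Anapc13 and Cdc26) higher in Ter119pos KO, with a median of 0.01, but by library totals alone 14 were lower and 1 higher, with a median of -0.88. The co-activator gene Fzr1 (-1.61) and the inhibitor gene Fbxo5 (-1.84) fell, and the subunit gene Anapc10 rose (1.46; 0.57 by library totals alone). In Ter119neg KO Fbxo5, Cdc16 and Anapc15 were lower and Anapc10 higher, whereas by library totals alone 6 were lower and 0 higher.

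Of the 14 DREAM and MuvB genes 11 were lower in Ter119pos KO (median -1.21), and 1, Lin37, was higher (0.82), a sign that turned by library totals alone (-0.07). The repressor genes E2f7 (-2.24) and E2f8 (-2.0) fell, as did Rbl1, which encodes the pocket protein p107 (-1.36), and Dyrk1a, a kinase that assembles DREAM (-1.65). In Ter119neg KO E2f8, Tfdp1, Rbl1, Dyrk1a and Lin54 were lower and Lin37 and Rbl2 higher, while by library totals alone 8 were lower and 0 higher.

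Of genes that can hold cells in G2, more were higher than lower in both fetal KO fractions, which by library totals alone did not hold in Ter119pos. Of 13 such genes 7 were higher and 4 lower in Ter119pos KO (median 1.18), 7 higher and 2 lower in Ter119neg KO (median 1.11), and 3 higher in LK KO (Plk2, Cdkn1a and Ccng1), while by library totals alone 6 were higher and 6 lower in Ter119pos. Cdkn1a, the CDK inhibitor p21, had 256 and 315 CPM in the KO Ter119pos libraries, against 1.44 and 1.29 CPM in the WT ones (log2 fold change 7.70, SE 0.52, adjusted p = 2.67e-07, edgeR). The Ter119neg libraries held 48.6 and 55.3 CPM in KO, against 5.66 and 1.29 CPM in WT. In LK it had 219.6, 373 and 232 CPM in KO, against 9.55, 13.5 and 7.32 CPM in WT. No KO library overlapped a WT library in any population. Also higher in Ter119pos KO were Plk2 (6.66) and Ccng1 (4.07), both known targets of p53, and Gadd45g (2.24), of a family that can inhibit CDK1, all 3 also by library totals alone. The kinases that hold CDK1 inactive fell, with -1.39 for Wee1 and -1.68 for Pkmyt1, and so did the checkpoint kinases Chek1 (-0.92) and Chek2 (-0.79).

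Exons of some members overlap another gene, and the strand setting of the counting is not given in the sources used here. Among overlaps on the opposite strand the longest were 1271 bases of Kif20a with Cdc23, 944 of Ncapg with Lcorl, 911 of Prc1 with Rccd1, 832 of Kif4 with Pdzd11, 623 of Cdc25c with Gm3550, 592 of Ube2c with Tnnc2 and 510 of Ccna2 with Exosc9. Knstrn shares 123 bases with Gm14091. Values of these members are uncertain to that extent.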

How the data were processed

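RNA from 14 mouse libraries in 6 groups was made into stranded total RNA libraries, per the labels' protocols. According to the submitters' processing notes, STAR 2.5.3 and RSEM were used with GRCm38 (mm10); which RSEM version, gene annotation and strand setting were chosen is not given in the sources used here. Each gene has a deposited RSEM expected count. Total counts were 19514550 to 30976961 per library.

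Expected counts were rounded and fitted in R 4.3.3 with edgeR 4.0.16 (TMM, filterByExpr, quasi-likelihood F test), the 8 fetal libraries in 1 model and the 6 LK libraries in another. In each of 6 comparisons the Benjamini-Hochberg adjustment ran over all genes tested, and genes were called under 0.05. The SE of a log2 fold change is its size over the root of F. GENCODE M21 gave coordinates and lengths. The scripts were tested on simulated data. Libraries of the same group differed beyond sampling noise.

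LK libraries of the same letter deviated together (r 0.604, 0.719 and 0.730), so blocked values are printed for members in LK where they change a call. Markers and genes of neighbouring steps are given in LK without that block only. Mice 1, 2 and 4 gave both fractions, and the mouse was fitted as a block across fractions. That fit had nearly as many terms as libraries, and its WT part rested on mouse 4 alone. The members, role classes and other lists were chosen with earlier results of these data known. Values in every library are given for up to 3 members of each class with the smallest p in Ter119neg KO against WT, and 1 more with the smallest p elsewhere; Cdc20 was added after its values were seen. Alternatives were RLE factors, no count filter, DESeq2 1.42.0, limma-voom (limma 3.58.1) and protein-coding scaling. Others were removal of a trend on longest transcript length (lowess span 0.3), globin removal, single-fraction models, blocks and omitted libraries. Scaling by library totals alone was added after the data were seen. Splicing was left out, as gene counts do not show it. Marker genes Epb42 and Ahsp were not matched by symbol.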

Additional observations from a re-analysis of the deposited data

Results flagged for a closer look

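The effect of the Prmt5 deletion differed between the Ter119pos and Ter119neg fractions for 48 of the 56 members by the edgeR interaction test (beside 41.7% of all genes). Among the members given in full, the KO effect in Ter119pos minus that in Ter119neg, on the log2 scale, was -2.23 for Mki67, -2.16 for Cenpf, -2.07 for Kif14, -1.95 for Aspm, -1.82 for Anln, -1.78 for Prc1 and -1.60 for Kif23. It was -1.32 for Foxm1, -1.28 for Top2a, -1.24 for Kif15, -1.24 for Smc4, -1.18 for Ttk, -1.08 for Espl1 and -1.03 for Aurkb. Smaller differences were those of Ccnb2 (-0.89), Mybl2 (-0.89), Bub1b (-0.77), Birc5 (-0.77), Bub1 (-0.54) and Cdk1 (-0.53). The difference ran the other way for Spc24 (0.53) and Pttg1 (0.66), and by library totals alone neither passed.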

How the results depend on the processing

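By library totals alone, added after the data were seen, the members' median was -2.17 in Ter119pos KO against WT, -0.57 in Ter119neg (32 called), 0.85 between fractions in WT, -0.84 in KO, where the direction turned, and -1.66 for the interaction. Named members that turned sign between fractions in KO were Cdk1 (-1.02), Ccnb2 (-0.62), Bub1b (-1.51), Ttk (-1.48), Bub1 (-0.94), Cenpf (-0.30), Spc24 (-1.01), Aurkb (-1.61), Birc5 (-0.23), Incenp (-0.45), Kif23 (-0.60), Kif15 (-1.43), Kif14 (-0.72), Top2a (-0.76), Smc4 (-0.43), Espl1 (-1.51), Anln (-0.94), Prc1 (-0.44), Aspm (-0.93), Foxm1 (-1.51) and Mybl2 (-1.09). In WT these were Bub1b (-0.15) and Spc24 (-0.96), and Spc24 also turned in Ter119pos KO against WT (-0.70) and in the interaction (-0.057). Of 2366 values of named members under alternatives 2110 kept direction and call, and 108 gained and 79 lost a call. Another 44 turned sign with no call in either fit, 35 of them in LK. A further 25 turned sign with a call in either or both fits, all 25 by library totals.

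Other medians outside the spread between replicates were, in Ter119neg KO against WT, -0.31 with RLE factors, -0.31 with DESeq2, -0.30 without the count filter and -0.30 without globin genes. In Ter119pos they were -1.18 without globin genes and -1.11 with that fraction's 4 libraries alone. Between fractions in KO they were 0.97 with RLE factors, 0.97 with DESeq2, 0.82 without the filter, 1.13 with the length trend removed, 1.06 with protein-coding scaling and 1.03 without globin genes. In WT they were 1.86 without the filter, 2.23 with the length trend removed and 2.12 with protein-coding scaling. The interaction was -0.95 without globin genes.

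In LK 0 members were called, against 3 with DESeq2, 2 (Knstrn and Espl1) with the length trend removed, 11 with the replicate block and 18 with the block and the length trend removed (27.2% of all genes). Leaving out single libraries gave 0 to 1 called and medians of -0.49 to 0.06 in LK, 6 to 9 and -0.36 to -0.29 in Ter119neg, 51 to 52 and -1.36 to -1.26 in Ter119pos, 42 to 47 and 0.87 to 1.04 between fractions in KO, 53 to 55 and 1.88 to 2.05 in WT, and 42 to 47 and -1.15 to -0.89 for the interaction. Where a group kept 1 library it was assumed to vary like the others. Fetal letters do not pair libraries (r 0.0047 and -0.029). With them as a replicate block 18 of the 19 members called in Ter119neg were kept and 2 were new. With the mouse block, whose WT part rested on mouse 4 alone, 50 members were called in KO, 55 in WT and 50 in the interaction. The cause of these shifts was not tested.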
